A study of Mus musculus with 4 samples.

Results

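The mRNAs of the translation initiation factors (symbols beginning Eif) and translation elongation factors (symbols beginning Eef) were examined in tibialis anterior (TA) muscle, which lifts the foot, from C57BL/6 mice. The members were all genes with such a symbol and a value in all 4 samples, and there were 57 of them among 20340 gene labels. All mice were wild type with no treatment named, and the groups were Old at 20 months (samples Old 1, Old 2) and Young at 3 months (samples Young 1, Young 2). The series text speaks of triplicates, and 2 samples per age were analysed here. Nothing in the labels says whether a sample is 1 mouse or a pool. The values are FPKM, sequenced fragments scaled to transcript length and to the mapped fragments of the sample, so levels can be compared between genes within a sample.

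Initiation factors bring the initiator tRNA, the small ribosomal subunit and a capped mRNA together and find the start codon, and elongation factors then carry aminoacyl-tRNAs to the ribosome and move it along. Cap recognition by the eIF4F complex and delivery of the initiator tRNA by eIF2 are the textbook control points of the process, and both respond to nutrients, growth signals and stress. Muscle fibers express Eef1a2, a form of elongation factor 1A found mainly in muscle and nerve cells, and protein synthesis is a main determinant of fiber mass.

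The rule also took in 4 genes that are not translation factors in the usual sense. Eif2c1, Eif2c2, Eif2c3 and Eif2c4 are older symbols of the Argonaute genes Ago1, Ago2, Ago3 and Ago4, whose proteins bind small RNAs, and they were kept as a class of their own. The other 53 members were sorted by role into factors of start codon selection, the exchange factor eIF2B, the kinases of eIF2, the eIF3 complex, eIF4F and its helpers, cap-complex inhibitors and transport, eIF5A and eIF6, elongation factors, and modifiers and partners of elongation factors. By the GENCODE annotation, 12 of the 57 loci overlap another protein-coding gene, 12 hold a small RNA gene, and 3 rows name another gene. The overlapped genes include Banf1 (at Eif1ad), Ccdc73 (at Eif3m), Rfc4 (at Eif4a2), Gm20696 (at Eif4e3), Ndufs1 (at Eef1b2) and Chrac1 (at Eif2c2). The locus of Eif3m spans 130704 bp against 17425 bp for the gene, and that of Eif4a2 20252 bp against 6693 bp. The other overlaps are given with their genes. Members from a part of chromosome 7 and from chromosomes 8, 9, X and Y were not analysed here, among them Eef1a1.

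The samples of an age differed in scale, which touches each value below. Over the 44 members with a mean of at least 10 FPKM and no value at 0, the median ratio was 1.96 for Old 1 over Old 2 and 1.93 for Young 2 over Young 1. Around these factors the members of an age tracked each other closely, with a robust SD of the log2 ratio of 0.05 for the Old pair and 0.07 for the Young pair. Across ages the same measure was 0.33 for Old 1 over Young 2 and 0.26 for Old 2 over Young 1. Over all 9293 tested genes above 0 in all samples, the spread was wider. It was 0.23 for the Old pair and 0.22 for the Young pair, against 0.42 and 0.46 across ages in the same order. Loci at 0 numbered 9558 in Old 2 and 9452 in Young 1, against 5223 in Old 1 and 5335 in Young 2. The study describes its mRNA-seq experiments as independent, but from the values alone the samples of an age may be 1 library processed in different ways, which cannot be told from FPKM without counts, and in that case each age has n = 1 and the p-values below measure technical spread only. For this reason each sample's value is given in place of a mean ± SD. Ratios of 2 kinds are therefore shown, those of the scale-matched pairs (Old 1 over Young 2, and Old 2 over Young 1) and those of 2 genes within a sample. The factor varied with the gene, so ratios of genes at unlike levels keep part of it. Eef1a2 over Eef1g, for example, was 2.39 in Old 1 and 2.63 in Young 2 but 1.91 in Old 2 and 2.07 in Young 1.

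Of the muscle markers, Mb had 1092 to 5739 FPKM and the row of Des and Speg 541 to 2379 FPKM over the 4 samples, while Ckm and Myh4 were listed at 0 in all 4. The slow-fiber markers, 5 with a value, summed to 1167 and 421 FPKM in Old 1 and Old 2 against 27.9 and 73.0 FPKM in Young 1 and Young 2. The row of the alpha-globin genes, a blood marker, had 607 and 277 FPKM against 39.5 and 88.6 FPKM in the same order, and the 6 fibroblast markers summed to 179 and 92.2 against 132 and 261 FPKM. The macrophage list (6 with a value) summed to 19.1 and 7.14 against 11.6 and 29.0 FPKM, the endothelial list (5) to 67.5 and 34.0 against 43.2 and 83.7 FPKM, the Schwann list (4) to 44.0 and 20.9 against 32.0 and 65.0 FPKM, and the adipocyte list (5) to 444 and 167 against 183 and 499 FPKM. Cfd, an adipocyte marker, was at 0 in Old 2 and Young 1. Of the fast-fiber genes, Tnnt3 was at 0 in Old 1 and Old 2, and Myh1 was at 0 in Young 1 and Young 2. In the scale-matched pairs, Mylpf was 0.982-fold and 0.902-fold in Old and Pvalb 1.02-fold and 1.03-fold. Tnni2 was 1.87-fold and 1.18-fold, Actn3 1.87-fold and 1.01-fold, and Tnnc2 1.60-fold and 0.754-fold. The part of fiber type, blood and connective tissue in the differences below was not tested, and in whole muscle fewer cells of a type cannot be told apart from less RNA per cell.

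**Figure D1:**
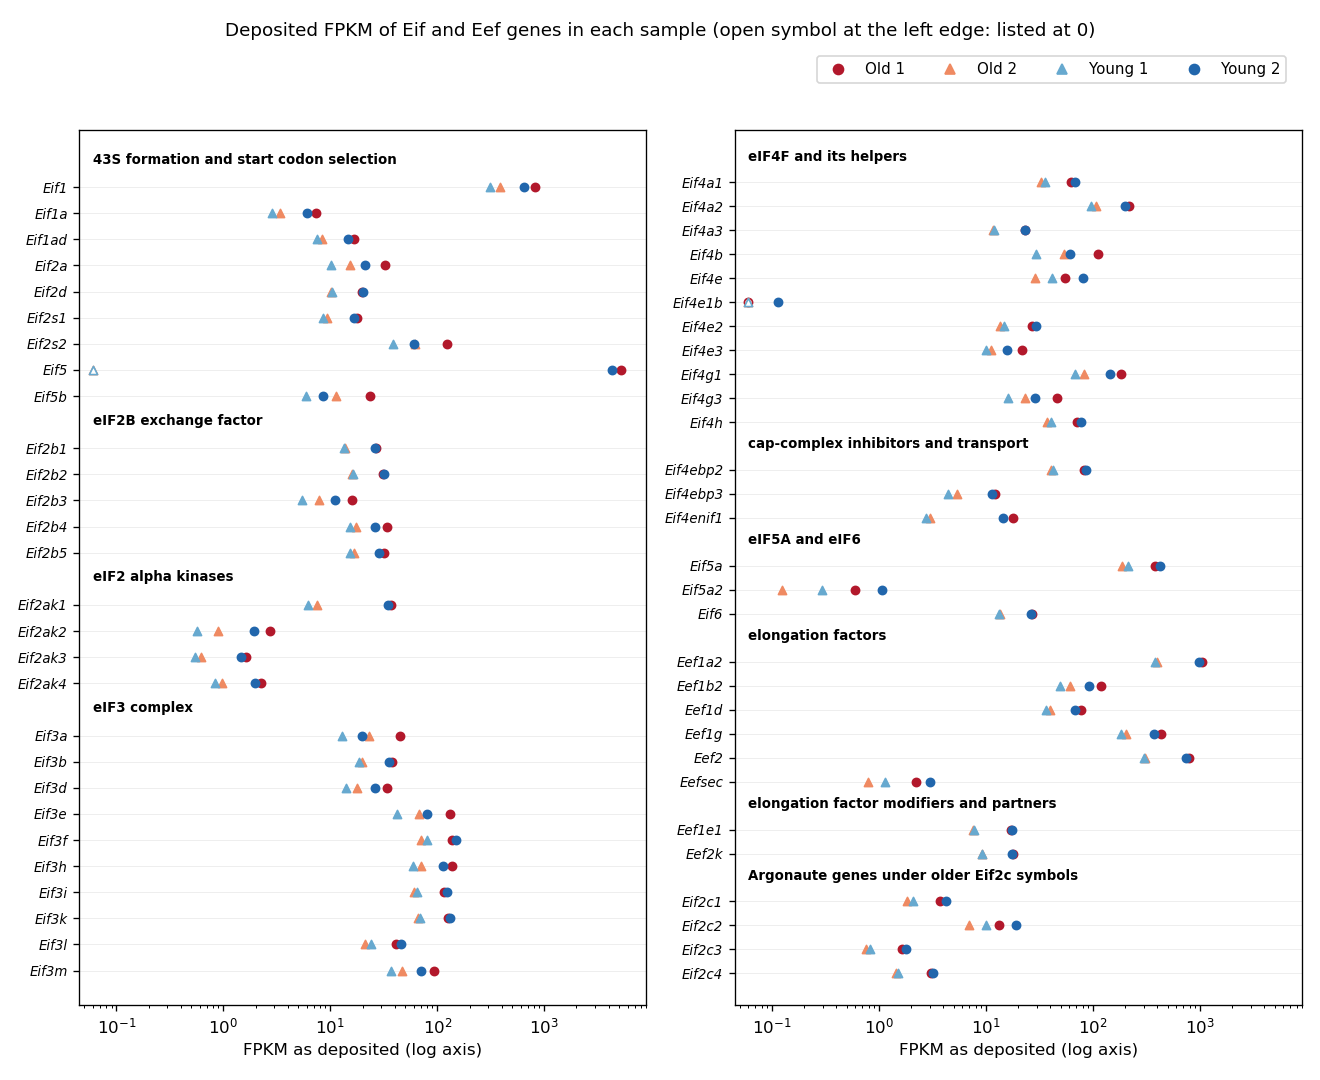
FPKM as deposited (log axis) of the 57 Eif and Eef genes, by factor class, with 1 symbol per sample. Circles (Old 1, Young 2) lie to the right of triangles (Old 2, Young 1) for nearly all genes, which is the difference in scale, and within each symbol shape Eif5b, Eif3a, Eif4b and Eif2s2 are higher in Old while Eif4e is higher in Young.

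No translation factor mRNA passed the test between the ages. The members with the largest values in favor of Old were Eif5b and Eif3a, and the one with the largest value in favor of Young was Eif4e. log2(FPKM + 1) was compared with limma after scaling, over the 10266 genes that reached 1 FPKM in 2 or more samples, of which 55 were members. At an adjusted p under 0.05 (limma, Benjamini-Hochberg), 0 members were higher and 0 were lower, where 0.594% of all tested genes were higher and 0.731% were lower. At an unadjusted p under 0.05 from the same fit, 10 members (18.2%) were higher and 2 were lower, against 11.5% and 12.9% of all tested genes. The median log2 fold change was 0.13 over the members and 0.00 over all tested genes. It was 0.071 and 0.058 without Young 2, 0.082 and 0.064 without Old 2, 0.17 and -0.06 without Old 1, and 0.15 and -0.06 without Young 1, so the gap to all genes depended on which sample was left out. With the fit restricted to genes with at least 1 FPKM in all 4 samples, 12 of 49 members were higher and 2 were lower at an adjusted p under 0.05 (limma), where 16.9% and 18% of the genes were, so the count of calls depended on the filter and the scale that goes with it. With quantile normalization, 2 members (Eif3e, Eif4b) were higher and 0 were lower (limma, adjusted p under 0.05), where 1.2% and 1.86% of all tested genes were. With the scale-matched pairs as a block on deposited values, 23 members were higher and 13 lower (limma, adjusted p under 0.05), where 27.4% and 32.9% of all tested genes were. These pairs are not given by the labels, and deviations of differently numbered samples correlated at 0.905 across genes. Log2 fold changes are written below as the limma estimate ± its standard error.

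In the scale-matched pairs, all 54 tested members without a value at 0 had the same direction in both, 35 higher and 19 lower in Old. Agreement was common, since of all 9293 tested genes without a value at 0 only 551 went opposite ways. Of these genes, 4228 were higher and 4514 lower in both pairs. The 35 members are 63.6% of the tested members, against 41.2% of all tested genes, and the 19 are 34.5% against 44%. These shares also count genes with a value at 0, which can take neither direction. They widen the contrast for the higher share and narrow it for the lower share. A difference of at least 1.25-fold in both pairs was found for 12 members higher (21.8%, background 17.1%) and 3 lower (5.45%, background 20.1%). At 1.5-fold there were 5 higher (9.09%, background 6.01%) and 0 lower (background 8.48%). The higher shares lie near the background, and these counts carry no test. After scaling, both Old values were above both Young values for 20 members (36.4%, background 25.8%) and below them for 4 (7.27%, background 25.7%). As deposited, both Old values were above both Young values for 3 members (5.45%, background 1.61%), namely Eif5b, Eif3a and Eif2s2, and below them for 0 (background 1.93%). With 2 samples against 2, an exact permutation test of a single value gives no two-sided p under 0.333. The 5 members higher by 1.5-fold were Eif5b, Eif3a, Eif2s2, Eif4b and Eif3e, and these, with the other members described for the size of their difference, were chosen after their values were seen.

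**Figure D2:**
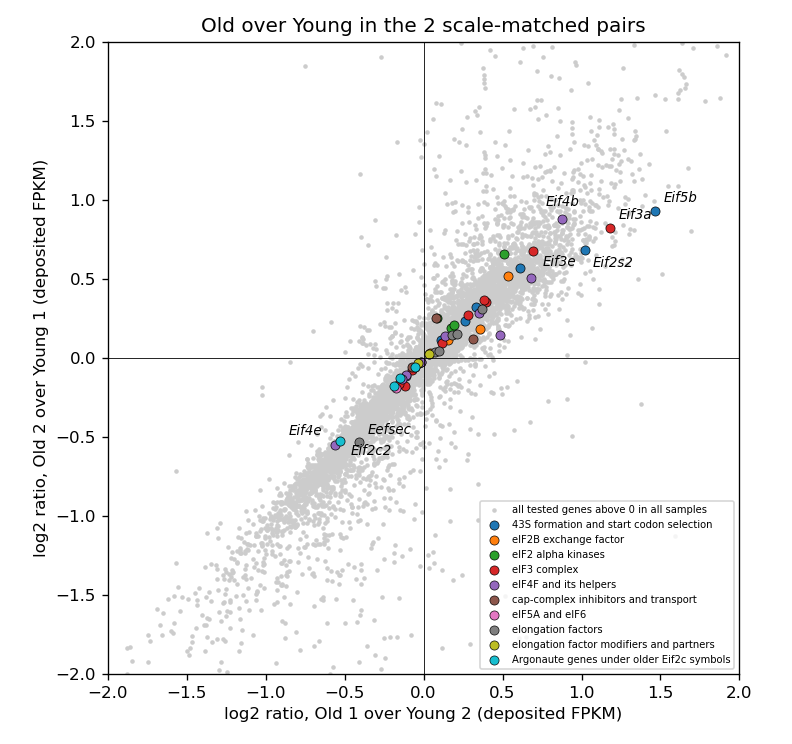
log2 ratio of Old 1 over Young 2 (x axis) against Old 2 over Young 1 (y axis) from deposited FPKM, with tested genes above 0 in all samples in grey and the 54 tested members among them colored by class. These members lie along the diagonal between Eif4e at 0.677-fold and 0.683-fold and Eif5b at 2.77-fold and 1.91-fold, and the axes end at ±2, leaving out genes beyond them.

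Among the factors of start codon selection, the joining of the ribosomal subunits and the delivery of the initiator tRNA, 7 of 8 members without a value at 0 were higher in Old in both pairs, and the median log2 fold change of the 9 tested was 0.22. These 9 include the row that Eif5 shares with Snora28, which has values at 0. Without loci naming more than 1 gene, the median was 0.29. Eif5b, the GTPase that joins the large subunit, had 23.6 FPKM in Old 1 and 11.3 in Old 2, against 5.92 in Young 1 and 8.51 in Young 2. Even the smaller-scale Old sample exceeded both Young samples, and the ratios were 2.77 for Old 1 over Young 2 and 1.91 for Old 2 over Young 1. It differed by 1.11 ± 0.24 on the log2 scale (limma adjusted p = 0.11), the highest among the members. Eif5b did not follow the common factor between the Young samples, with 1.44-fold between Young 2 and Young 1 against 2.08-fold between Old 1 and Old 2. Its log2 fold change was 0.81 without Young 2 and 1.42 without Young 1, and without Young 2 the adjusted p was 0.029 (limma, with a lone Young sample assumed to vary like the Old samples). The locus lies on chromosome 1 from 37998010 to 38129662 (mm10) and overlaps the gene Rev1. It spans 131653 bp against 57570 bp for the gene Eif5b.

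Eif2s2, the beta subunit of eIF2, had 122 FPKM in Old 1 and 61.8 in Old 2, against 38.5 in Young 1 and 60.2 in Young 2, so both Old values exceeded both Young values also as deposited. The locus overlaps the coat-color gene a. It differed by 0.86 ± 0.24 on the log2 scale (limma adjusted p = 0.158). Its partner Eif2s1, the alpha subunit on which the stress kinases act, had 17.9, 9.24, 8.53 and 16.6 FPKM in the order Old 1, Old 2, Young 1, Young 2, and overlapped between the ages. Within a sample, Eif2s2 was 6.81 and 6.70 times Eif2s1 in Old 1 and Old 2, against 4.51 and 3.63 times in Young 1 and Young 2. The third subunit, eIF2 gamma, was not analysed here. Eif2a, an alternative carrier of the initiator tRNA, had 32.2 and 15.2 FPKM in Old 1 and Old 2 against 10.2 and 21.1 in Young 1 and Young 2, 0.58 ± 0.11 on the log2 scale (limma adjusted p = 0.0992), at a locus that overlaps Serp1. Eif2d, another such carrier, had 19.7 and 10.04 FPKM in Old 1 and Old 2 against 10.3 and 20.2 in Young 1 and Young 2, with ratios of 0.978 and 0.977.

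Eif1, which guards the choice of the start codon, was the most abundant of these mRNAs with a value in every sample, at 819 FPKM in Old 1 and 388 in Old 2, against 309.5 in Young 1 and 649 in Young 2. It was 1.26-fold and 1.25-fold higher in Old in the pairs, with 0.35 ± 0.12 on the log2 scale (limma adjusted p = 0.195). Eif1a, which works beside it on the small subunit, was low, at 7.27 and 3.35 FPKM in Old 1 and Old 2 against 2.85 and 6.07 in Young 1 and Young 2. Eif5, which triggers GTP hydrolysis on eIF2, shares its row with the small nucleolar RNA Snora28. This row was at 5191 FPKM in Old 1 and 4293 in Young 2 but listed at 0 in Old 2 and Young 1, so the level of Eif5 itself cannot be read.

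The 5 subunits of eIF2B, which recharges eIF2 with GTP, had similar levels within a sample, and the highest exceeded the lowest by 2.09-fold in Old 1 and 2.97-fold in Young 1. The lowest subunit was Eif2b3 in all 4 samples, at 16.1 FPKM in Old 1 and 7.79 in Old 2, against 5.44 in Young 1 and 11.1 in Young 2. It was 1.45-fold and 1.43-fold higher in Old, with 0.50 ± 0.11 on the log2 scale (limma adjusted p = 0.112). Relative to Eif2b1, it stood at 0.600 and 0.566 in Old 1 and Old 2 and at 0.404 and 0.425 in Young 1 and Young 2. Eif2b2, the subunit with the highest mean, had 31.3 and 15.9 FPKM in Old 1 and Old 2 against 16.1 and 31.7 in Young 1 and Young 2, and overlapped between the ages. Eif2b4 had 33.6 and 17.3 FPKM against 15.2 and 26.2 FPKM in the same order, and the ratios of Eif2b1 and Eif2b2 were 0.984 to 1.03 in the pairs.

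Of the kinases that phosphorylate eIF2 alpha, Eif2ak1 (the heme-regulated kinase) was listed highest, at 36.5 FPKM in Old 1 and 34.4 in Young 2 but 7.43 in Old 2 and 6.22 in Young 1. The 4.92-fold gap between the Old samples was far from the common factor, and its locus overlaps the genes Ankrd61 and Aimp2. Eif2ak2 (the kinase bound by double-stranded RNA, also called PKR) had 2.75 and 0.887 FPKM in Old 1 and Old 2 against 0.562 and 1.93 in Young 1 and Young 2, with ratios of 1.43 and 1.58. The row also names Gm6548, and the difference was 0.34 ± 0.20 on the log2 scale (limma adjusted p = 0.401). Eif2ak3 (PERK, the kinase of the endoplasmic reticulum) and Eif2ak4 (GCN2, the amino acid sensor) were low in all samples, from 0.543 to 2.24 FPKM, and 1.13-fold to 1.16-fold higher in Old in the pairs.

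eIF3 is the large scaffold that holds the small subunit to the mRNA, and 10 of its subunits had values. They differed in direction, with 6 higher and 4 lower in Old in both pairs and a median log2 fold change of 0.21. The median was 0.078 without Young 2, 0.079 without Old 2 and 0.34 without Old 1 or without Young 1. Eif3a, the largest subunit, had 44.5 FPKM in Old 1 and 22.8 in Old 2, against 12.8 in Young 1 and 19.6 in Young 2. Both Old values lay above both Young values, the ratios were 2.27 and 1.77, and it differed by 0.98 ± 0.24 on the log2 scale (limma adjusted p = 0.133). Without Young 2 the log2 fold change of Eif3a was 0.70, and the ratio of Young 2 to Young 1 was 1.53. Eif3e, a smaller subunit, had 130.4 and 67.1 FPKM in Old 1 and Old 2 against 41.9 and 80.8 in Young 1 and Young 2, with ratios of 1.61 and 1.60 and 0.70 ± 0.17 on the log2 scale (limma adjusted p = 0.131). Old 2 was below Young 2 as deposited and above both Young samples once scaled.

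Eif3d, Eif3m and Eif3h were 1.21-fold to 1.32-fold higher in Old in the pairs, and Eif3b, a subunit that binds RNA, 1.09-fold and 1.07-fold. Eif3f, Eif3i, Eif3k and Eif3l were 0.885-fold to 0.962-fold, that is, slightly lower. Eif3f, the most abundant subunit on average and a known target of the muscle ubiquitin ligase Fbxo32 at the protein level, had 137 FPKM in Old 1 and 70.8 in Old 2, against 80.0 in Young 1 and 149 in Young 2. Eif3k, whose ratio of the samples of an age was 1.91 at both ages, was taken, after its values were seen, as a reference within a sample. Relative to Eif3k, Eif3a stood at 0.354 in Old 1 and 0.347 in Old 2 against 0.188 in Young 1 and 0.150 in Young 2, and Eif3e at 1.04 and 1.02 against 0.615 and 0.619. The range from the lowest to the highest subunit was 4.01-fold and 3.99-fold in the Old samples and 6.23-fold and 7.60-fold in the Young samples, with Eif3a the lowest subunit in Young and Eif3d in Old.

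**Figure D3:**
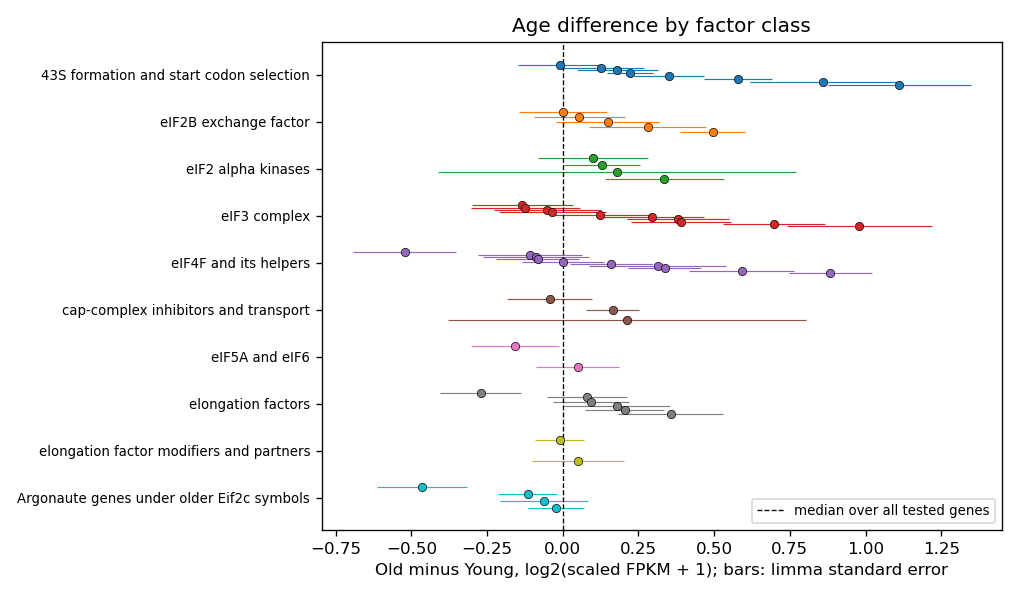
log2 fold change between Old and Young (x axis, on log2(scaled FPKM + 1)) of each tested member by factor class, with limma standard errors as bars and the median of all tested genes as a dashed line. The row shared by Eif5 and Snora28 is left out, since its standard error was 6.10. The start codon, eIF3 and eIF4F classes reach from values near or below 0 to 1.11, 0.98 and 0.88, while 5 of the 6 elongation factors lie between 0.08 and 0.36.

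The eIF4F complex, made of the cap-binding protein eIF4E, the scaffold eIF4G and the helicase eIF4A, showed differences in opposite directions among its parts. Eif4e, the cap-binding protein gene, had 54.4 FPKM in Old 1 and 28.5 in Old 2, against 41.7 in Young 1 and 80.3 in Young 2. It was 0.677-fold and 0.683-fold in the pairs, both scaled Old values lay below both scaled Young values, and it differed by -0.52 ± 0.17 on the log2 scale (limma adjusted p = 0.192). The locus lies on chromosome 3 from 138526191 to 138559697 (mm10). Among its relatives, Eif4e2, a cap-binding repressor, had 27.1, 13.6, 14.6 and 29.2 FPKM in Old 1, Old 2, Young 1 and Young 2, with ratios of 0.927 and 0.928, and Eif4e3 had 21.8, 11.1, 10.1 and 15.6 FPKM, with ratios of 1.40 and 1.11. Eif4e was 2.01 times Eif4e2 in Old 1 against 2.75 times in Young 2. Eif4e1b, a germ-cell form, was listed at 0 in 3 samples and at 0.113 FPKM in Young 2.

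Eif4b, which stimulates the helicase, had 111 FPKM in Old 1 and 54.2 in Old 2, against 29.4 in Young 1 and 60.5 in Young 2. The ratios were 1.83 and 1.84, and it differed by 0.88 ± 0.14 on the log2 scale (limma adjusted p = 0.0797), the lowest adjusted p among the members. Its homologue Eif4h had 71.2 and 37.2 FPKM in Old 1 and Old 2 against 40.7 and 78.1 in Young 1 and Young 2, with ratios of 0.911 and 0.914. The order of these 2 helpers therefore differed with age, since Eif4b was 1.56 and 1.46 times Eif4h in the Old samples and 0.724 and 0.774 times in the Young samples. The locus of Eif4b lies on chromosome 15 from 102073773 to 102097173 (mm10), a chromosome that also carries Eif3d, Eif3e, Eif3h, Eif3l, Eef1d and Eif2c2.

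The scaffold Eif4g1 had 182 FPKM in Old 1 and 82.8 in Old 2, against 67.9 in Young 1 and 143 in Young 2, 1.27-fold and 1.22-fold higher in Old in the pairs. Its paralogue Eif4g3 was lower in level, at 46.4 and 23.0 FPKM in the Old samples against 16.2 and 29.0 in Young 1 and Young 2, with 0.59 ± 0.17 on the log2 scale (limma adjusted p = 0.168). With Eif4g1 higher and Eif4e lower in Old, Eif4g1 was 3.35 and 2.91 times Eif4e in Old 1 and Old 2, against 1.63 and 1.78 times in Young 1 and Young 2. Of the helicases, Eif4a2 was the most abundant, at 219, 107, 96.8 and 199 FPKM in the order Old 1, Old 2, Young 1, Young 2. Eif4a1 had 62.7, 32.9, 35.6 and 67.8 FPKM in that order, and Eif4a3, which serves the exon junction complex, had 23.1, 11.6, 11.8 and 23.4 FPKM. Eif4a2 was 3.49 and 3.24 times Eif4a1 in the Old samples and 2.72 and 2.94 times in the Young samples. The small nucleolar RNA Snora81, encoded within Eif4a2, had its own row at 220.2 FPKM in Old 1 and 263 in Young 2 and was listed at 0 in the other samples.

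Eif4ebp2, whose product sequesters eIF4E, was the most abundant inhibitor with a value, at 81.9 FPKM in Old 1 and 40.4 in Old 2, against 42.0 in Young 1 and 86.2 in Young 2. Its level was close to equal between the ages (0.949-fold and 0.961-fold), so its ratio to Eif4e moved with Eif4e. Eif4ebp2 stood at 1.51 and 1.42 times Eif4e in the Old samples and at 1.01 and 1.07 times in the Young samples. The ages did not overlap in this ratio, and the share of all gene pairs for which this holds was not computed. Eif4ebp1, the relative best known from muscle, was not analysed here. Eif4ebp3 shared its row with Ankhd1, at 12.1, 5.31, 4.46 and 11.4 FPKM in Old 1, Old 2, Young 1 and Young 2. Eif4enif1, which carries eIF4E into the nucleus, differed 5.97-fold between the Old samples, and its locus of 277479 bp overlaps 5 other protein-coding genes, so its values were not read further.

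**Figure D4:**
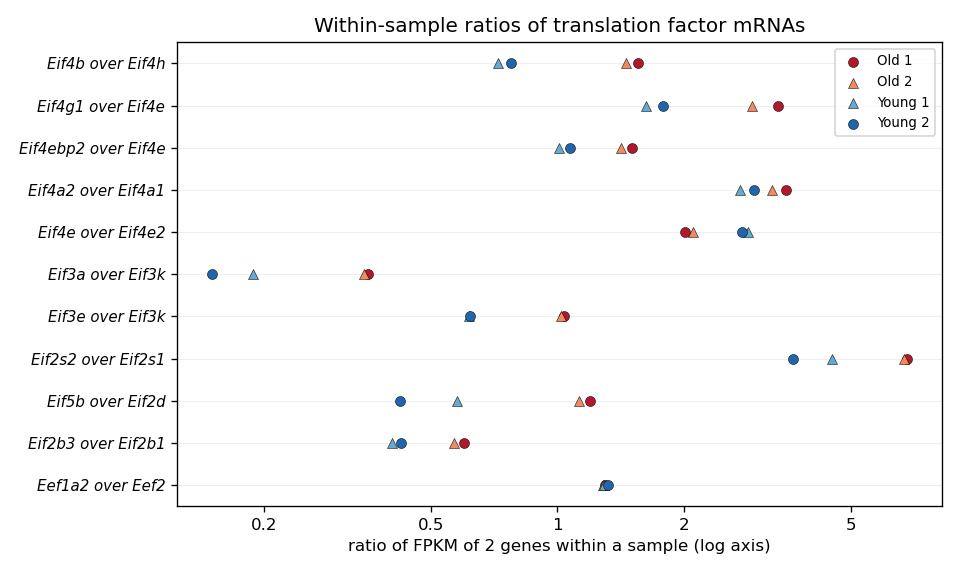
Ratio of the FPKM of 2 genes within each sample (log axis), in which a factor common to both genes cancels. The Old and Young symbols are apart for the eIF4F, eIF3, eIF2 and eIF2B ratios shown, which were picked from a longer set. Eif4b over Eif4h is 1.56 and 1.46 in Old and 0.724 and 0.774 in Young. Eef1a2 over Eef2 lies from 1.28 to 1.32 in all 4 samples. Of the ratios not shown, Eef1a2 over Eef1g, Eif5a over Eif5a2 and Eef2 over Eef2k overlapped between the ages and others did not. The share of all gene pairs whose ratio separates the ages was not computed.

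eIF5A, which carries the modified residue hypusine and relieves stalled ribosomes, came from Eif5a at 379 FPKM in Old 1 and 187 in Old 2, against 213 in Young 1 and 427 in Young 2, 0.887-fold and 0.879-fold in the pairs. Its paralogue Eif5a2 was low, at 0.591, 0.124, 0.291 and 1.07 FPKM in the order Old 1, Old 2, Young 1, Young 2, and was not tested. Eif6, which keeps the ribosomal subunits apart, was 1.02-fold in both pairs.

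Of the 6 elongation factors, 5 were higher and 1 was lower in Old in both pairs, with a median log2 fold change of 0.14, and Eef1a2 had the highest mean level of all members whose row names 1 gene. Eef1a2, which delivers aminoacyl-tRNAs, had 1038 FPKM in Old 1 and 393 in Old 2, against 382 in Young 1 and 986 in Young 2, 1.05-fold and 1.03-fold in the pairs (0.08 ± 0.13 on the log2 scale, limma adjusted p = 0.839). Eef2, which translocates the ribosome, had 798, 306, 297 and 747 FPKM in the same order, 1.07-fold and 1.03-fold in the pairs (0.09 ± 0.13 on the log2 scale, limma adjusted p = 0.774). The ratio of Eef1a2 to Eef2 was 1.30 in Old 1 and 1.28 in Old 2, against 1.29 in Young 1 and 1.32 in Young 2. These abundant mRNAs differed 2.64-fold and 2.61-fold between the Old samples, above the median factor of 1.96.

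The 3 genes of the eEF1B exchange complex with a value leaned higher in Old. Eef1b2 had 119 and 61.0 FPKM in Old 1 and Old 2 against 49.1 and 92.5 in Young 1 and Young 2, with ratios of 1.29 and 1.24 and 0.36 ± 0.17 on the log2 scale (limma adjusted p = 0.321). Eef1g had 434 and 205 FPKM against 184 and 374 FPKM, with ratios of 1.16 and 1.11, and Eef1d had 77.0 and 39.9 FPKM against 36.1 and 68.1 FPKM, with ratios of 1.13 and 1.11. Eef1g was 3.37 to 4.04 times Eef1b2 in the 4 samples. Snora41, encoded within Eef1b2, had a row of its own at 73.5 and 55.8 FPKM in the Old samples and was listed at 0 in both Young samples. Eefsec, which serves selenocysteine, was low and 0.754-fold and 0.692-fold in the pairs, at 2.24 and 0.793 FPKM in the Old samples against 1.14 and 2.97 FPKM in Young 1 and Young 2. Eef2k, the kinase that inhibits Eef2, had 17.8 and 9.27 FPKM against 9.10 and 17.4 FPKM, with ratios of 1.02 and 1.02, and Eef1e1, a scaffold of the synthetase complex, was 0.976-fold and 0.977-fold.

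None of the 4 Argonaute genes passed the test. All 4 had lower values in Old in both pairs, where 44% of all tested genes did, and the median log2 fold change was -0.09. Eif2c2 (Ago2, the slicer) was the most abundant, at 13.3 FPKM in Old 1 and 6.93 in Old 2, against 9.98 in Young 1 and 19.2 in Young 2. It was 0.694-fold in both pairs, with -0.46 ± 0.15 on the log2 scale (limma adjusted p = 0.186). The other 3 were 0.880-fold to 0.964-fold (limma adjusted p from 0.575 to 0.971), with levels from 0.751 to 4.24 FPKM.

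Many mRNAs of the translation apparatus begin with a run of C and T, the terminal oligopyrimidine (TOP) start, through which their translation follows mTOR. A list of 9 such members was set beside the data, of which 8 had values. Of these, 7 were higher in Old in both pairs, where 63.6% of the tested members and 41.2% of all tested genes were. The test was passed by 0 of them, with a median log2 fold change of 0.25 and a range from that of Eif3f at -0.12 to that of Eif4b at 0.88. The stretches with the longest run of C and T near the start of 2 of them with a run of at least 8 C or T bases (Eef2, Eif3f), of Eif4b from the same list, and of Eif3a and Eif5b, the members with the largest differences, are shown for comparison. They are RefSeq sequences of GRCm38.p6 (the assembly of mm10), 5′ to 3′ on the strand of the gene, with the longest run of C and T within 50 bases of the annotated start in capitals.
Eef2: cagcggTCTCTTCCgccgcagccgccgc
Eif3f: tctaggCTCTCTCTCTTTCTCggcaaga
Eif4b: actccaCCCCTTCggccacatgtcgcgc
Eif3a: cacgtggTTCCTTCCTTTCCgtctctgg
Eif5b: cctgggTTCCCacctggccggcggctct

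The windows lie at chr10:81176639-81176666 (plus strand), chr7:108934405-108934432 (plus), chr15:102073729-102073756 (plus), chr19:60790644-60790671 (minus) and chr1:37997999-37998026 (plus). The run of Eef2 has 8 bases and begins at position 15 of the annotated transcript, and that of Eif3f has 15 bases and begins 4 bases before the start. The run of Eif5b has 5 bases and begins 5 bases before the start. The run of Eif4b has 7 bases and begins 38 bases before the start. That of Eif3a has 13 bases and begins at position 30 of the transcript. The stretches shown for Eef2, Eif4b and Eif3a do not hold the annotated start itself. A run of at least 8 such bases on the sense strand, with overlaps not counted apart, was found near 20 of 61 annotated starts of 45 members (32.8%), against 35.7% of all 32851 starts in the table. The median log2 fold change was 0.05 for the 17 genes with such a run that were tested and 0.14 for the 27 without. No difference between them was tested. Among members with a run of at least 8 bases, the log2 fold change was -0.12 for Eif3f, 0.09 for Eef2 and 0.98 for Eif3a.

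The age difference was set beside the base composition of the transcripts, and the relation was weak. In the longest protein-coding transcript of GENCODE, the mRNAs of Eif5b, Eif3a, Eif2s2, Eif3e and Eif2a had a GC content of 43.7%, 44.5%, 42.1%, 40.3% and 43.6%, and those of Eif4b and Eif4e had 50.3% and 40.5%. Over all tested genes, the median log2 fold change was 0.07 in the lowest of 4 equal bins of GC content and -0.10 in the highest. For the members in those bins it was 0.31 (15 members) and 0.08 (9 members), and in the bins between 0.13 (13 members) and 0.07 (18 members). Across 54 members, the log2 fold change and the GC content had a Pearson's r of -0.29, and with transcript length r was -0.00. Over 8907 tested genes with a transcript, r with GC content was -0.15. These are descriptions across genes measured in the same libraries, and the part of base composition in the differences was not tested.

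Other genes of protein synthesis were taken from lists set beside the factors. For the counts below, 41.2% of all tested genes were higher and 44% lower in Old in both pairs. Of 17 cytosolic aminoacyl-tRNA synthetase genes and partners tested, 12 were higher and 4 lower in Old in both pairs, with a median log2 fold change of 0.14. Of 11 mitochondrial translation factors, 4 were higher and 5 lower, with a median of -0.02, and Tufm, the mitochondrial counterpart of elongation factor 1A, was 0.699-fold and 0.706-fold. Of 22 poly(A)-binding, cap-complex and signaling partners, 13 were higher and 8 lower, with a median of 0.19, and Larp1, which binds TOP mRNAs, was 1.53-fold and 1.43-fold. Of 6 release and recycling factors, 4 were higher and 2 lower, with a median of 0.15. Of these 56 genes 0 passed the test (limma, adjusted p under 0.05), and at an unadjusted p under 0.05 there were 6 higher and 2 lower, where 11.5% and 12.9% of all tested genes were. Tufm and Larp1 were chosen as examples after their values were seen.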

How the data were processed

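The 4 samples, 2 per age, were mRNA libraries of TA muscle. The labels name a TruSeq RNA kit and the methods of the study a stranded one, so reads of overlapping genes may not be told apart. After trimming and duplicate removal, the authors mapped reads to mm10 (TopHat2 2.0.10, RefSeq as guide) and computed the FPKM of each locus (version 2.1.1 of the Cufflinks tools, listed as Cuffdiff in the processing notes). No counts were used here, so depth is unknown. Of the values, 1 incomplete line per sample was left out, and 20605 loci with a value in all 4 samples were kept. Loci of a symbol were summed. Locus starts are given counted from 1.

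FPKM values were scaled by median-of-ratios factors over the tested genes above 0 in all samples. log2(FPKM + 1) was compared with limma 3.58.1 in R 4.3.3 (trend, two-sided, Benjamini-Hochberg) over the 10266 genes reaching 1 FPKM in 2 or more samples. The fit was also run on simulated data with no scale factor or with one common to all genes. The real factor varied with the gene, so that run is no check of the values here, and its outcome is not given. Figures used matplotlib 3.10.9. Members, classes, lists, scaling and the crossed pairs were chosen with earlier results of these data known. By rule, values were given for members past the test at a log2 fold change of at least 0.5, the most abundant member of each class and paralogue pairs. Other members were named after their values were seen. Alternatives covered scaling, pseudocount, filter, loci, blocks, trend and left-out samples. Genes beyond the common end of the values were not analysed here.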

Additional observations from a re-analysis of the deposited data

Results flagged for a closer look

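For 2 further members, values reached the analysis from Old 2 and Young 1 only, and they lay outside the comparisons above. Eif3c, a core subunit of eIF3 on chromosome 7 from 126546911 to 126566366 (mm10), had 36.5 FPKM in Old 2 and 24.6 FPKM in Young 1, a ratio of 1.48. The row of Eif4g2, a relative of eIF4G that lacks the site for eIF4E, shared with 1700012D14Rik, had 82.5 FPKM in Old 2 and 77.6 FPKM in Young 1, a ratio of 1.06. With 1 sample per age there was no replicate check and no test. Both were noted because the Old value exceeded the Young value in data that no comparison used.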

How the results depend on the processing

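The number of members past the threshold (0 higher and 0 lower) was the same with FPKM as deposited, equal summed FPKM, no filter, a pseudocount of 0.1, only the top locus of each symbol, no loci naming more than 1 gene, no trend and the replicate block. It was 2 and 0 with quantile normalization (Eif3e, Eif4b), 12 and 2 when all 4 samples had to reach 1 FPKM, and 0 to 1 and 0 when a sample was left out. With the replicate block (samples paired by number), 67 genes were higher and 92 lower over all genes. Same-numbered deviations correlated at -0.905 across genes, which with 2 samples per age is the 0.905 of differently numbered samples with its sign reversed. This value cannot tell which samples were processed together. With the crossed pairs as a block, 23 members were higher and 13 lower, against 2812 (27.4%) and 3374 (32.9%) of all genes. With FPKM as deposited, equal sums, no filter or no trend, few or no genes of any kind passed, so 0 members there is no check. The median standard error over all genes was 0.985 as deposited and 0.335 with equal sums, against 0.148 in the main fit.

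Over all genes, 61 higher and 75 lower became 18 and 13 as deposited, 123 and 191 with quantile normalization, 7 and 5 with equal sums, 83 and 123 with a pseudocount of 0.1, 0 and 0 without a filter, 1222 and 1302 when all 4 had to reach 1 FPKM, 0 and 2 without the trend, and 11 to 291 and 7 to 387 when a sample was left out, the extremes being without Old 2 and without Young 2.

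The median of the start codon class (0.22) was 0.30 with equal sums, 0.26 with a pseudocount of 0.1, 0.28 when all 4 had to reach 1 FPKM, 0.29 without loci naming more than 1 gene, 0.27 in Old 1 with Young 2, 0.18 in Old 2 with Young 1, and 0.28 to 0.29 when a sample was left out. When a sample was left out, the medians ranged from 0.084 to 0.32 for the eIF2 kinases (0.15), 0.0072 to 0.29 for eIF2B (0.15), 0.078 to 0.34 for eIF3 (0.21), 0.033 to 0.23 for cap-complex inhibitors (0.16), -0.14 to -0.041 for the Argonaute genes (-0.09) and 0.14 to 0.16 for the elongation factors (0.14). The medians of 3 classes near 0 changed sign in some alternative, with ranges of -0.02 to 0.17 (eIF4F), -0.15 to 0.05 (eIF5A and eIF6) and -0.05 to 0.11 (modifiers). The 12 members at an unadjusted p under 0.05 kept their direction in the 15 alternatives run, with log2 fold changes of 0.81 to 1.42 for Eif5b, 0.70 to 1.26 for Eif3a, 0.80 to 0.98 for Eif4b and -0.66 to -0.39 for Eif4e. These members were picked by the main fit and the alternatives reuse the same 4 samples, so the kept direction is no independent check. The causes were not tested, and without counts or more samples per age the precision of a value is unknown.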
